A study of Rattus norvegicus with 6 samples.

Results

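The endocannabinoid genes examined here were 8 genes of lipid signaling at the synapse, taken as a fixed list of symbols from the 17455 genes of the hippocampal count table. They were the receptor gene Cnr1, the synthesis genes Dagla, Daglb and Napepld, and the breakdown genes Mgll, Abhd6, Abhd12 and Faah. All 8 symbols were in the table, 7 had enough counts to be tested and Faah was listed at 0 in every library. Total RNA from hippocampal samples of 3 Fmr1 KO and 3 WT male rats was sequenced, 1 library per rat. The rats were aged 10 weeks and on the Long Evans background (LE-Fmr1em2Mcwi). No treatment is named for any of the 6 rats, the KO allele is carried in the germline, and WT animals were selected from the same crosses. The methods assigned 1 litter per group to transcriptomics, and the labels do not tie rats to litters, so a difference between litters and one between genotypes cannot be told apart here. Together with the spread between 3 rats a group, totals of 9619812 to 13390476 counted reads per library limit how small a difference could be seen.

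Endocannabinoids are lipid messengers that a postsynaptic neuron makes on demand and that travel backward to the presynaptic terminal, where the cannabinoid receptor CB1 lowers transmitter release. In the hippocampus CB1 is densest on the terminals of cholecystokinin interneurons and is also present on glutamatergic terminals. The main messenger at these synapses, 2-arachidonoylglycerol (2-AG), is made by diacylglycerol lipases and split by monoacylglycerol lipase and related hydrolases, while anandamide is made and split by a separate pair of enzymes. FMRP, the product of Fmr1, binds RNA and holds back its translation, and in mice Dagla mRNA has been reported among the RNAs it binds. The comparison of KO with WT rats asks whether the mRNA levels of this machinery differ when FMRP is lost.

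Promoter windows of 300 bases, 250 before and 50 after the annotated start in the GRCr8 assembly of RefSeq, were at hand for 6 of the 8 genes (Daglb, Mgll, Abhd6, Abhd12, Napepld and Faah). Their share of G and C ran from 59.0% in Daglb to 74.7% in Napepld, with Daglb and Abhd6 (60.3%) below and the other 4 above a median of 61.3% over the 9355 tested genes with a window. The GC box, searched as GGGCGG on both strands with overlapping matches counted, was present in 5 of the 6 and in 62.5% of the windows of tested genes. Napepld held 8 copies, a number that 0.470% of the windows of tested genes reach or pass, and Mgll held 3. Daglb was the one window of the 6 without a GC box and the one with TATAAA, searched on both strands, which 6.57% of those windows hold. The match in Daglb began at base -188 relative to the annotated start, and whether it works as a promoter element was not tested. The windows of Napepld (chr4:14253010-14253309, plus strand) and Daglb (chr12:16215709-16216008, minus strand) are printed because they are the ends of this range, with both motifs in capitals.
Napepld: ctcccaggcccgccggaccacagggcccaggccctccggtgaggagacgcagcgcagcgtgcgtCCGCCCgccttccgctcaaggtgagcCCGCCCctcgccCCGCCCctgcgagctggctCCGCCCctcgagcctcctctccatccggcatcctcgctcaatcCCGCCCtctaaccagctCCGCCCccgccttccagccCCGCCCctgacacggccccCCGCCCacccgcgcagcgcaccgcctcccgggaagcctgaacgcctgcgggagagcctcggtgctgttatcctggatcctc
Daglb: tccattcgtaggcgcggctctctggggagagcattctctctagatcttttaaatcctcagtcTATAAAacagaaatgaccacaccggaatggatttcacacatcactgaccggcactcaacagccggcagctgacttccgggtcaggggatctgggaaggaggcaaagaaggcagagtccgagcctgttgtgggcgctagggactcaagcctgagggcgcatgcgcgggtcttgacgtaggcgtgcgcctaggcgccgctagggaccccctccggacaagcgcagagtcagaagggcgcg

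Across the 6 libraries, the mRNAs of the tested endocannabinoid genes had nearly the same level in KO and WT rats, with Cnr1 as the one gene past an unadjusted threshold. Levels are CPM, read counts relative to the TMM-scaled library total. Changes are log2 fold changes of KO over WT, tested with edgeR (quasi-likelihood), and each p-value was adjusted by Benjamini-Hochberg across all 11800 tested genes. At an adjusted p under 0.05, 0 of the 7 tested genes were called, where 0.0254% of all genes tested were, and DESeq2 also called 0, where it called 0.359% of the genes it gave an adjusted p. With p under 0.05 before adjustment, as the study's methods set it, 1 of 7 passed in edgeR and 1 in DESeq2, Cnr1 in both, where 9.35% of all genes tested passed in edgeR and 5.79% in DESeq2. By sign, 4 of the 7 were higher and 3 lower in KO rats, and the median log2 fold change was 0.0060, beside 0.0017 over all genes tested. The median size of the fold change, regardless of sign, was 0.039 on the log2 scale, beside 0.093 over all genes tested. The median standard error (SE) was 0.076 for the 7 genes and 0.101 over all genes tested, so these sizes were not measured with equal precision. In 3 of the 7 genes, Cnr1, Abhd6 and Daglb, no KO library overlapped a WT library, which was so in 14.7% of all genes tested, and with total counts alone as the scale this held for 2 of the 7.

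**Figure D1:**
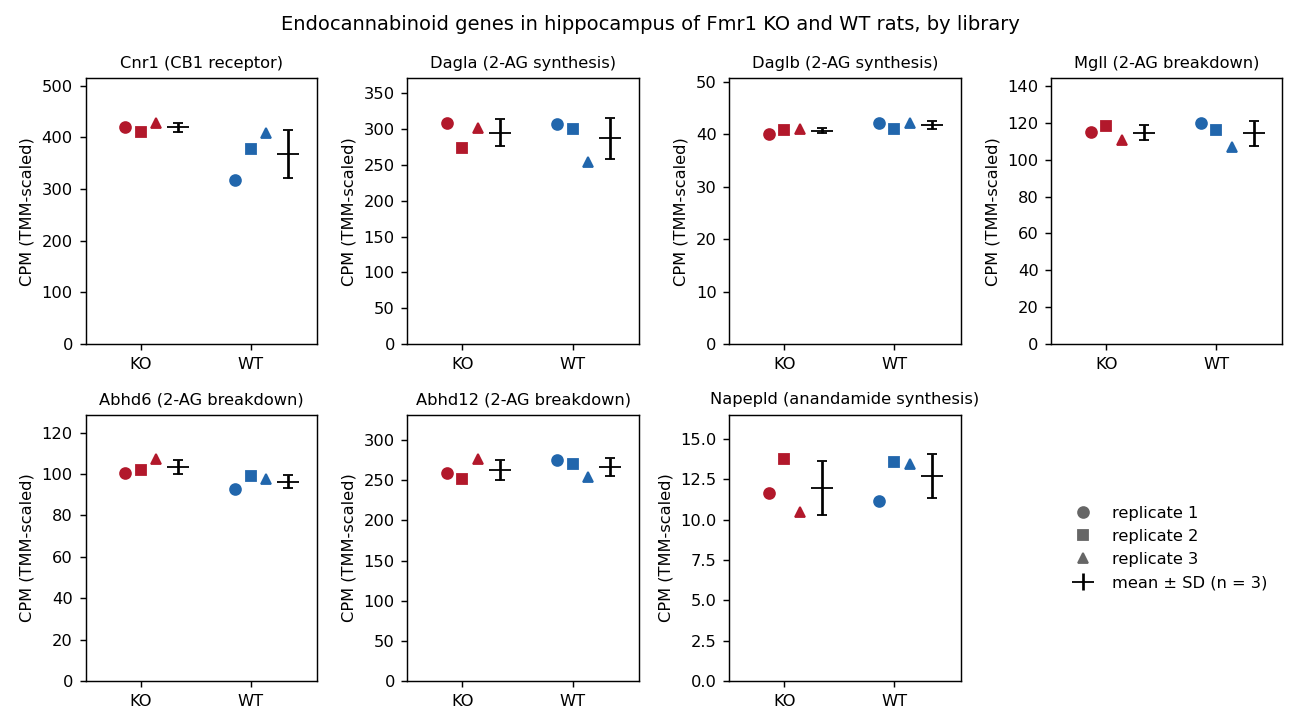
Level in CPM (vertical axis, from 0) of the 7 tested endocannabinoid genes in each KO library (red, left) and WT library (blue, right), with the mean ± SD of 3 libraries beside them. Cnr1 spans 410.2 to 428.3 CPM in KO and 317.7 to 409.2 CPM in WT libraries, and the groups lie close together in every panel.

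The groups were checked first on the targeted gene. Fmr1 had 17.4, 13.1 and 11.6 CPM in KO replicates 1, 2 and 3, against 47.6, 50.6 and 51.6 CPM in WT replicates 1, 2 and 3, which gave -1.83 on the log2 scale with an SE of 0.12 (edgeR adjusted p = 5.7e-06). All KO libraries were thus well below every WT library, although transcript remained. Of 7 markers of hippocampal pyramidal and granule cells, 6 were tested, and the summed level of these was 2389 to 2584 CPM in KO and 2395 to 2886 CPM in WT libraries. Markers of other cells were present in both groups as well. The summed level of 7 oligodendrocyte markers was 10059 to 11415 CPM in KO and 12585 to 13263 CPM in WT libraries. The sum of 7 microglial markers was 345 to 393 CPM in KO and 359 to 418 CPM in WT libraries, and that of 7 astrocyte markers was 5396 to 6220 CPM in KO and 4911 to 5636 CPM in WT libraries. For 5 endothelial markers it was 254 to 259 CPM in KO and 236 to 253 CPM in WT libraries. Of 4 choroid plexus markers 2 were tested, with a sum of 3.98 to 8.15 CPM in KO and 10.2 to 12.4 CPM in WT libraries. No listed marker was at 0 in all libraries, the oligodendrocyte, endothelial and choroid plexus sums did not overlap between the groups, and their part in the results below was not tested. In whole tissue, fewer cells of a type and less RNA per cell cannot be told apart.

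Cnr1 encodes CB1, the receptor through which both messengers act on presynaptic terminals. It had 419.2, 410.2 and 428.3 CPM in KO replicates 1, 2 and 3, against 317.7, 377.2 and 409.2 CPM in WT replicates 1, 2 and 3. The KO libraries formed a tight band of 18.1 CPM, the WT libraries spread over 91.6 CPM, and the lowest KO library, at 410.2 CPM, lay just above the highest WT library, at 409.2 CPM. The mean was 419 ± 9.04 CPM in KO and 368 ± 46.5 CPM in WT rats (SD, n = 3 each), a 1.14-fold level with a 95% interval of 1.01 to 1.28. The log2 fold change of 0.19 (SE 0.080) had an unadjusted p of 0.0347 and an adjusted p of 0.494 from edgeR.

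The size of the Cnr1 difference depended on single WT libraries. Without WT replicate 1, the lowest for this gene, the log2 fold change was 0.092 (edgeR adjusted p = 0.843, unadjusted p = 0.196). Without WT replicate 3, the highest in WT, it was 0.27 (edgeR adjusted p = 0.0635, unadjusted p = 0.0017), in a fit where 17.6% of all genes tested passed an unadjusted p of 0.05. Over all 11 alternative fits the adjusted p ranged from 0.0635 to 0.848 and the direction was higher in KO rats in each. Leaving out any 1 KO library also ended the unadjusted call (unadjusted p from 0.0572 to 0.101), while the fold change stayed between 0.17 and 0.20 on the log2 scale. WT replicate 1 also stood at the end of the first principal component of the 500 most variable genes (25.2% of their variance). Its score was 13.3 where the other libraries scored -7.44 to 3.84. On the second component (22.4%), WT replicate 3 stood at the low end, at -9.57, where the other libraries scored -5.87 to 8.29.

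Markers of interneurons were set beside Cnr1, since cholecystokinin interneurons are the hippocampal cells richest in CB1. Of the 7 genes on this list, Gad1, Gad2 and Slc32a1 mark GABAergic neurons of every kind, and Cck, Htr3a, Vip and Slc17a8 are found in cholecystokinin cells but not in these alone. The summed level of the 3 general markers was 320, 359 and 328 CPM in KO replicates 1, 2 and 3, against 277, 345 and 382 CPM in WT replicates 1, 2 and 3. The groups overlapped. WT replicate 1 was the lowest library in this sum, as it was for Cnr1, but of the 3 genes only Gad1 was lowest there. Gad2 was lowest in KO replicate 3 (40.8 CPM) and Slc32a1 in KO replicate 1 (54.3 CPM). The sum of the other 4 was 184, 222 and 192 CPM in KO and 235, 246 and 248 CPM in WT libraries, most of it Cck. Over all 7 genes the sum was 503, 581 and 520 CPM in KO and 512, 591 and 631 CPM in WT libraries. The lowest library there was KO replicate 1. By sign, 2 of the 7 were higher and 5 lower in KO rats. Only the neuropeptide gene Cck passed an unadjusted p of 0.05 in edgeR, as 9.35% of all genes tested did. Cck had 156, 193 and 159 CPM in KO replicates 1, 2 and 3, against 207, 217 and 213 CPM in WT replicates 1, 2 and 3. Its libraries did not overlap between the groups, which was so in 14.7% of all genes tested. The log2 fold change was -0.33 (SE 0.077) with an edgeR adjusted p of 0.239. The part of these cells in the Cnr1 level was not tested.

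The genes of 2-AG synthesis had closely similar measured mean levels in both groups. Dagla encodes the diacylglycerol lipase that makes most synaptic 2-AG in the adult brain. It had 309, 273 and 302 CPM in KO replicates 1, 2 and 3, against 306, 299 and 254 CPM in WT replicates 1, 2 and 3. The groups overlapped, with one library of each, KO replicate 2 and WT replicate 3, below the rest. The log2 fold change was 0.038 with an SE of 0.076 (edgeR adjusted p = 0.907), a 1.03-fold level with a 95% interval of 0.917 to 1.15. Without WT replicate 3 the sign turned, to -0.041. Daglb, which encodes the second lipase of this kind and is prominent in microglia, had 40.1, 40.9 and 40.9 CPM in KO and 42.2, 41.0 and 42.2 CPM in WT libraries. Every KO library was below every WT library, but the closest pair stood at 40.93 CPM in KO and 40.96 CPM in WT, and with total counts alone as the scale the groups overlapped. Its log2 fold change was -0.039 with an SE of 0.077 (edgeR adjusted p = 0.905), with a 95% interval of 0.868 to 1.09 in fold.

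Among the 3 genes of 2-AG breakdown, Abhd6 was the one whose groups separated. Mgll encodes monoacylglycerol lipase, the presynaptic enzyme that removes most brain 2-AG, and had 115.1, 118.3 and 110.5 CPM in KO replicates 1, 2 and 3, against 120.0, 115.9 and 106.8 CPM in WT replicates 1, 2 and 3. These ranges lay almost on top of each other, with a log2 fold change of 0.0060 with an SE of 0.067 (edgeR adjusted p = 0.987) and a 95% interval of 0.909 to 1.11 in fold. Its sign turned without KO replicate 2 (-0.019) or WT replicate 3 (-0.041). Abhd6, a hydrolase placed at the postsynaptic site where 2-AG is made, had 101, 102 and 107 CPM in KO replicates 1, 2 and 3, against 92.6, 98.9 and 97.4 CPM in WT replicates 1, 2 and 3. All KO libraries were above all WT libraries, with means of 103 ± 3.37 and 96.3 ± 3.29 CPM (SD, n = 3 each). The log2 fold change of 0.10 (SE 0.065) missed both thresholds, with an unadjusted p of 0.149 and an adjusted p of 0.669. Its 95% interval of 0.973 to 1.18 in fold still includes no difference, and the value lay between 0.072 and 0.12 over all 11 alternative fits.

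Abhd12 encodes a serine hydrolase that acts on lysophosphatidylserine as well as 2-AG and whose loss in humans causes a neurodegenerative disease. It had 259.0, 251.8 and 276.0 CPM in KO replicates 1, 2 and 3, against 274.9, 270.1 and 254.3 CPM in WT replicates 1, 2 and 3. No library stood apart and the groups overlapped fully, with a log2 fold change of -0.023 with an SE of 0.061 (edgeR adjusted p = 0.933). The 95% interval of 0.898 to 1.08 in fold was the narrowest of the 7 genes on the log2 scale.

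The anandamide branch was measured less well. Napepld encodes the phospholipase that releases anandamide and other N-acylethanolamines from membrane precursors, and it is the gene whose promoter window held 8 GC boxes. It had 11.7, 13.7 and 10.4 CPM in KO replicates 1, 2 and 3, against 11.2, 13.6 and 13.4 CPM in WT replicates 1, 2 and 3. Both groups spread over more than 2 CPM and overlapped. With 100 to 186 counts per library, it was the least counted of the tested genes and had the widest 95% interval, 0.767 to 1.16 in fold, around a log2 fold change of -0.083 with an SE of 0.14 (edgeR adjusted p = 0.889). The value ran from -0.20 without KO replicate 2 to 0.00072 without KO replicate 3, so its direction was not settled by these libraries.

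Faah encodes fatty acid amide hydrolase, the enzyme that ends anandamide signaling and that hippocampal pyramidal neurons are known to contain. It was listed with 0 counts in all 3 KO and all 3 WT libraries, as were 2976 (17.0%) of the 17455 genes. Counting error alone would allow up to 3 counts per library, 0.224 to 0.312 CPM. Its neighbor in the gene order of GRCr8, Nsun4, was listed at 0 in all 6 libraries too, while the next gene on that side, Uqcrh, had 1199 to 1604 counts in KO and 1416 to 1731 counts in WT libraries. Whether reads from this locus were left uncounted was not tested, so the 0 is given as the content of the table and no comparison of Faah, or of Napepld with Faah, was made.

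Ratios of enzyme mRNAs within a library do not depend on how libraries are scaled, and they did not separate the groups. The log2 ratio of Dagla to Daglb was 2.94, 2.73 and 2.88 in KO replicates 1, 2 and 3, against 2.85, 2.86 and 2.59 in WT replicates 1, 2 and 3. The log2 ratio of Dagla to Mgll, 2-AG synthesis over breakdown, was 1.42, 1.21 and 1.45 in KO and 1.35, 1.37 and 1.25 in WT libraries. In both ratios KO replicate 2 and WT replicate 3 were the low libraries of their groups. The difference of the means, KO minus WT, was 0.081 for Dagla to Daglb, 0.035 for Dagla to Mgll, 0.029 for Mgll to Abhd12 and -0.094 for Mgll to Abhd6. In all 4 ratios the groups overlapped and the difference was smaller than the larger of the SDs of KO and WT libraries, although for Mgll to Abhd6 it passed the KO SD of 0.0914 and for Mgll to Abhd12 the WT SD of 0.0282. These ratios compare libraries, not the abundance of one mRNA with that of another, since transcript length was not used.

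**Figure D2:**
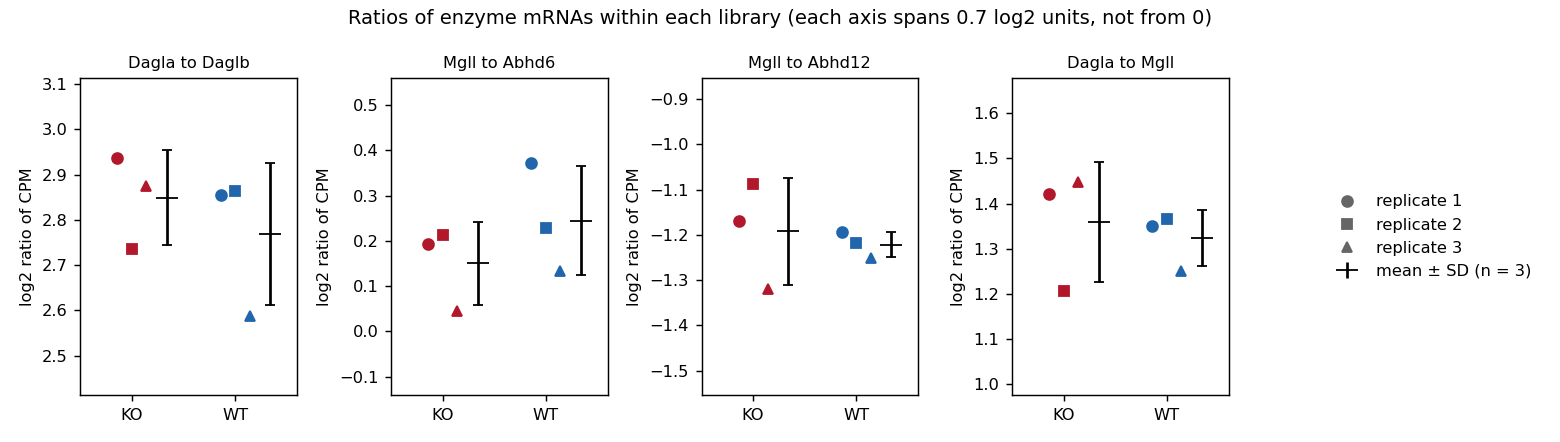
Log2 ratio of the CPM of 2 genes in each KO library (red, left) and WT library (blue, right) with the mean ± SD of 3 libraries. Every axis spans the same width and none starts at 0. The groups overlap in all 4 panels.

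A wider list of 52 genes around these 8, covering other receptors, receptor partners, the signals that drive 2-AG synthesis, alternative synthesis and breakdown routes, carriers and receptor effectors, held 42 tested genes. At an adjusted p under 0.05, 0 of the 42 were called in edgeR and 0 in DESeq2. At an unadjusted p under 0.05, 0 were higher and 3 lower in KO rats in edgeR, where 4.19% of all genes tested were higher and 5.15% lower, and 2 passed in DESeq2, where 5.79% of all genes did. The median log2 fold change was -0.031, with 15 genes higher and 27 lower by sign. Alox15, Ces1d, Gdpd3, Gpr119, Gpr18, Plaat5 and Pparg were in the table but had too few counts to be tested, and Gpr55, Pla2g4e and Sgip1 were not matched.

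Of 7 tested genes of other N-acylethanolamine routes, 5 were lower by sign and Plaat3 and Abhd4 passed the unadjusted threshold, which 9.35% of all genes tested did. Over the whole list of 42 the share was 7.14%. Plaat3 encodes a phospholipase and acyltransferase, best known from fat tissue. It had 54.0, 62.1 and 54.9 CPM in KO replicates 1, 2 and 3, against 69.6, 69.8 and 62.3 CPM in WT replicates 1, 2 and 3. The groups met closely, at KO replicate 2 and WT replicate 3, but did not overlap, and the log2 fold change was -0.23 with an SE of 0.081 (edgeR unadjusted p = 0.0116, adjusted p = 0.387). Without KO replicate 1 the unadjusted p was 0.0553. Abhd4, a hydrolase upstream of anandamide, had 95.2, 110.6 and 119.5 CPM in KO and 122.6, 119.8 and 123.3 CPM in WT libraries, which again did not overlap. Its log2 fold change was -0.17 with an SE of 0.078 (edgeR unadjusted p = 0.0469, adjusted p = 0.528), and it missed the unadjusted threshold in DESeq2 (0.0622), with total-count scaling (0.0623) and in 5 of the 6 fits with a library left out (0.0676 to 0.276). It was -0.086 without KO replicate 1, the lowest KO library. Gdpd1, a phosphodiesterase of the same routes, was the third of these 7, and of the 42, whose groups separated, as they did in 14.7% of all genes tested, at 38.8 to 41.6 CPM in KO and 42.9 to 44.2 CPM in WT libraries. Its log2 fold change was -0.13 with an SE of 0.078 (edgeR adjusted p = 0.615), and Gde1, a related phosphodiesterase, had one of -0.12 (adjusted p = 0.674). The value for Gde1 was -0.060 without WT replicate 1. It was -0.19 without WT replicate 3 (edgeR unadjusted p = 0.0138), in a fit where 17.6% of all genes tested passed an unadjusted p of 0.05.

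Among 4 carriers of these lipids, only Fabp7 passed the unadjusted threshold, which 9.35% of all genes tested did. Fabp7 encodes a fatty acid binding protein of astrocytes and neural progenitors. It had 66.4, 71.3 and 74.1 CPM in KO replicates 1, 2 and 3, against 106.3, 104.1 and 69.5 CPM in WT replicates 1, 2 and 3, so that WT replicate 3 lay among the KO libraries. Its log2 fold change was -0.40 with an SE of 0.15 (edgeR unadjusted p = 0.0294, adjusted p = 0.474). Without WT replicate 3 it was -0.58 (edgeR adjusted p = 0.0018), in a fit that called 256 genes in all, 2.15% of those tested, against 3 with all libraries. With any other library left out the unadjusted p ran from 0.0502 to 0.0963. Fabp5, the carrier of anandamide in neurons, also had WT replicate 3 as its lowest WT library, with 64.2, 66.1 and 54.9 CPM in KO and 82.6, 76.1 and 57.3 CPM in WT replicates 1, 2 and 3. Its log2 fold change was -0.22 with an SE of 0.13 (edgeR adjusted p = 0.622), -0.36 without WT replicate 3 (edgeR adjusted p = 0.0441, in the same fit of 256 calls) and -0.11 without WT replicate 1 (unadjusted p = 0.386).

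The signals and effectors around CB1 gave no call in edgeR with all libraries and genotype as the only term. The 10 tested genes that drive 2-AG synthesis include the receptor genes Grm5, Chrm1 and Chrm3 and the phospholipase C genes. Of these 10, 0 passed the unadjusted threshold in edgeR, which 9.35% of all genes tested passed. The log2 fold changes ran from -0.18 for Plcb3 (adjusted p = 0.622) to 0.086 for Gnaq, and that of Grm5, the receptor that triggers 2-AG release at these synapses, was -0.055 with an SE of 0.11 (edgeR adjusted p = 0.906). Of 12 effector genes, 0 passed, and the inward rectifier potassium channel genes Kcnj3 and Kcnj6 had log2 fold changes of 0.19 (adjusted p = 0.588) and 0.14 (adjusted p = 0.590) and the adenylate cyclase gene Adcy5 one of -0.11 (adjusted p = 0.646). Single libraries moved these values. Kcnj3 was at 0.10 without WT replicate 3 and 0.32 without WT replicate 1 (edgeR unadjusted p = 0.0042, adjusted p = 0.466), and its unadjusted p was 0.0288 with the replicate block. Kcnj6 was at 0.042 without KO replicate 1 and 0.20 without KO replicate 3 (edgeR unadjusted p = 0.0370, adjusted p = 0.704), and Adcy5 at -0.067 without WT replicate 3 and -0.16 without WT replicate 1 (unadjusted p = 0.0402). Among genes of other breakdown, Ptgs2, the cyclooxygenase that oxidizes 2-AG, showed a log2 fold change of -0.22 with an SE of 0.11 (edgeR adjusted p = 0.555), and Naaa, a lysosomal amidase, one of -0.21 (adjusted p = 0.682). Ptgs2 was at -0.097 without WT replicate 1 and -0.30 without WT replicate 2 (edgeR unadjusted p = 0.0294, adjusted p = 0.822). Cnr2, the gene of the second cannabinoid receptor and chiefly known from immune cells, had 12 to 19 counts in KO and 13 to 16 counts in WT libraries, and its log2 fold change was 0.13 with an SE of 0.32 (edgeR adjusted p = 0.930).

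**Figure D3:**
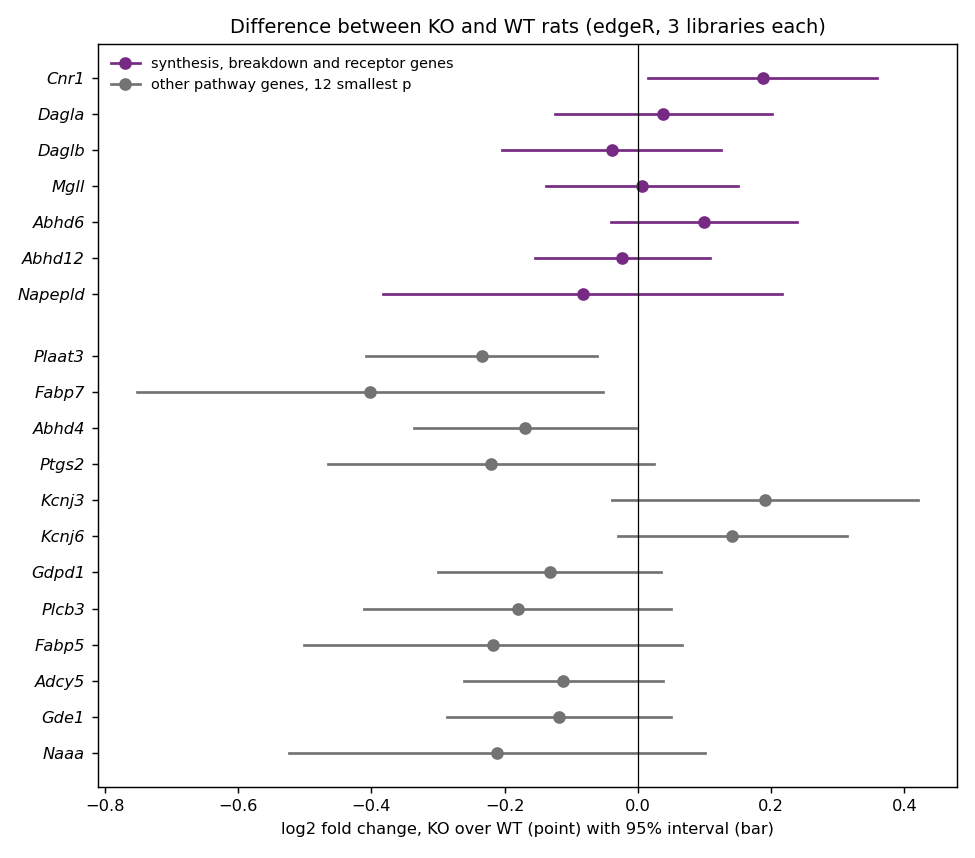
Log2 fold change of KO over WT (point) with its 95% interval (bar) from edgeR for the 7 tested endocannabinoid genes (purple, top) and the 12 other pathway genes with the smallest p (grey, bottom). The interval of Cnr1 begins at 0.016 and those of the other 6 purple genes cross 0.

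The genes most like each endocannabinoid gene were found by the smallest root-mean-square difference of log2 CPM over the 6 libraries, after centering each gene on its own mean. They were Pagr1, Adam1a and Ccnt2 for Cnr1 (0.026 to 0.029 on the log2 scale), Prickle1, Tsfm and Akr1b1 for Dagla (0.023 to 0.029), and Ttc5, Tut1 and Tmem179 for Mgll (0.017 for each). Slc12a7, Ppp2r2b and Copb1 were closest to Daglb (0.0090 to 0.014), RGD1309748, G3bp1 and Actn2 to Abhd6 (0.014 to 0.017), Ina, Nabp2 and Pak4 to Abhd12 (0.011 to 0.013) and P2rx6, Nfatc1 and Mob3a to Napepld (0.032 to 0.043). With 6 libraries and 11800 genes such neighbors are a description of these libraries only. Pagr1 followed Cnr1 in the spread of the WT libraries, with 41.5, 40.6 and 42.9 CPM in KO and 32.5, 38.2 and 42.6 CPM in WT replicates 1, 2 and 3.

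**Figure D4:**
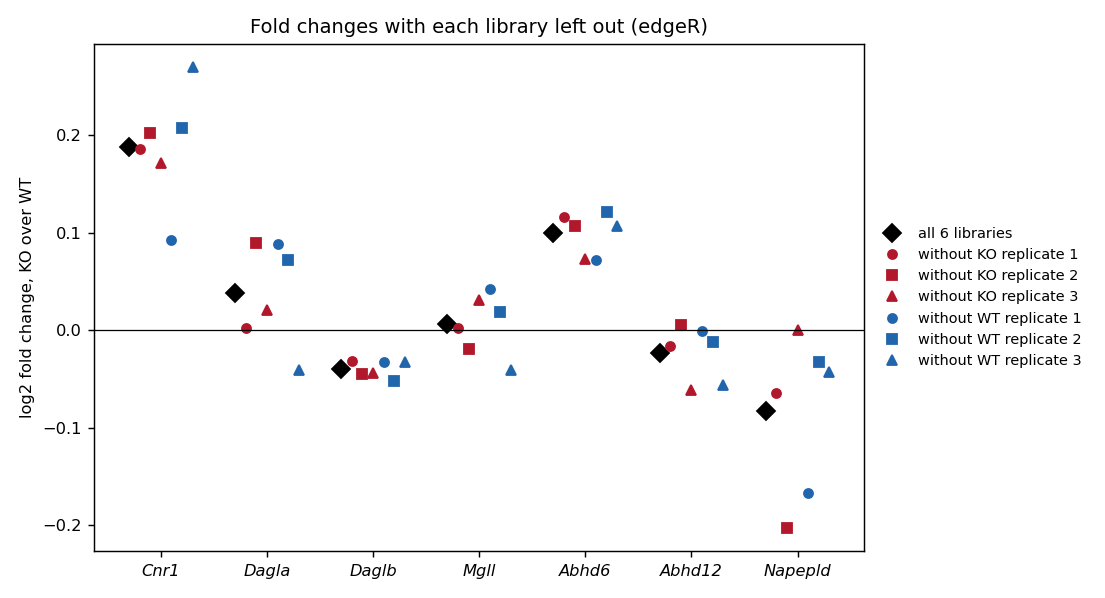
Log2 fold change of KO over WT for each of the 7 tested genes with all 6 libraries (black) and with each KO (red) or WT (blue) library left out. Cnr1, Abhd6 and Daglb keep their sign throughout, while Dagla, Mgll, Abhd12 and Napepld cross 0, and Cnr1 is 0.092 without WT replicate 1 and 0.27 without WT replicate 3.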

How the data were processed

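Hippocampal RNA of 3 Fmr1 KO and 3 WT rats was extracted with TRIzol and sequenced as single-end reads after a directional NEBNext Ultra II library. The authors used FastQC for read quality and HISAT2 for alignment to the rn6 build, and deposited raw counts per gene from htseq-count ("intersection non-empty"), with versions, annotation and strand setting not given in the sources used here. A second deposited table holds the authors' DESeq2 fold changes and p-values and was not used. All 6 count columns were assigned to a library by label.

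The test used edgeR 4.0.16 under R 4.3.3 (filterByExpr with a minimum count of 10, TMM, robust quasi-likelihood fit, genotype as the only term, 11800 genes tested), and the code was tested on simulated data. Intervals of fold changes are 95% intervals from that fit. Like p-values, they rest on counting error and on the spread between these rats, and they reach no further than these rats. The fit draws the spread of each gene toward that of other genes. An interval can therefore be wider than the libraries of that gene alone would give. DESeq2 1.42.0, 2 other scalings, no filter, a replicate block and each library left out served as alternatives. Log2 ratios used a prior count of 2. The other pathway genes named are the 12 with the smallest p, with Grm5, Gnaq and Cnr2 added after their values were seen, and Cck and the other markers come from the marker lists, of which the interneuron list was split after its values were seen. The members and lists were chosen with earlier results of these data known. RefSeq symbols of GRCr8 matched all 8 members. Annotated lncRNAs or pseudogenes overlap Cnr1 and Abhd12, a tRNA gene overlaps Mgll, and none of them is in the count table.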

Additional observations from a re-analysis of the deposited data

How the results depend on the processing

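Among the 7 tested endocannabinoid genes, 0 passed an adjusted p of 0.05 in any of the 11 alternative fits. The count at an unadjusted p under 0.05 ranged from 0 to 1 with a library left out, being 0 without WT replicate 1 or any 1 KO library, and was 1 in every other fit. Other pathway genes were counted among those that each fit tested, which were 42 in the filtered edgeR fit with all libraries. Their adjusted count ranged from 0 to 2, the 2 being Fabp7 and Fabp5 without WT replicate 3. That fit called 256 (2.15%) of all genes tested against 3 with all libraries. The unadjusted count was 3 with all libraries and genotype as the only term, where 9.35% of all genes passed, and 6 with the replicate block (9.40%). Among the fits with a library left out it ranged from 1 (without KO replicate 1, where 5.89% of all genes passed) to 5. The count of 5 came without KO replicate 3, where 7.04% of all genes passed, and without WT replicate 3, where 17.6% did. With a library left out, the log2 fold change ranged from -0.041 to 0.089 for Dagla, -0.041 to 0.042 for Mgll, -0.061 to 0.0048 for Abhd12 and -0.20 to 0.00072 for Napepld, so that these 4 turned in sign, while Cnr1 (0.092 to 0.27), Abhd6 (0.072 to 0.12) and Daglb (-0.052 to -0.031) did not. The cause was not tested.

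Same-numbered KO and WT libraries had correlations of 0.028, -0.0088 and -0.078 in their deviations from the group means. Not every library correlated best with its own number. With 3 libraries a group, these correlations cannot settle whether the replicate numbers pair the libraries. The replicate block called 17 of all 11800 genes tested at an adjusted p under 0.05 in edgeR, against 3 without it. With the replicate block, 0 endocannabinoid genes were called at an adjusted and 1 at an unadjusted p under 0.05, and 6 other pathway genes at an unadjusted p, which 9.40% of all genes passed. The 4 ratios moved by less than 1 SD under the 7 alternatives run for them, and those of Dagla to Daglb, Dagla to Mgll and Mgll to Abhd12 crossed 0 with a library left out. The ratio of Napepld to Faah was not run because Faah had no counts. With 3 libraries a group, differences in fold smaller than the intervals given could not be seen.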
